A study of Mus musculus with 8 samples.

Results

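The 58 genes described here copy DNA or open S phase, the part of the cell cycle in which the genome is doubled, and they were chosen by gene symbol from what their products do. All 58 were rows of the count table, out of 16647 gene rows. By role, 16 load or switch on the replicative helicase, 19 encode polymerases, the sliding clamp and other fork proteins, 5 make nucleotides, 7 copy chromatin behind the fork, 7 are cyclins and E2F factors, and 4 protect or repair the fork. In tumour cells sorted by a reporter of past Cre activity, the summed level of the 58 genes was nearly the same in both sorted populations, while in GFP+ labelled libraries 11 of the 57 tested were higher and 6 lower, where 15.7% and 14.9% of all genes tested were, so neither count stood far from the background. The genes that were lower included 4 of the 5 nucleotide synthesis genes. In a fit that took out a trend on transcript length and GC content, 3 of those 5 were lower. The largest positive folds were those of Brip1, E2f8 and Brca1. Between cells with many and cells with few mitotic transcripts, edgeR called 5 members lower in the former: Ccne2, Cdc6, Chaf1b, Mcm6 and Pcna. Of all genes tested there 1.48% were lower. DESeq2 called 0 members in that comparison, and without RFP+ labelled library 1 only Ccne2 was still called. Mcm6 was not lower in GFP+ labelled library 2.

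Tri-PyMT is a line of mouse mammary tumour cells that carries MMTV-PyMT, an oncogene driven in mammary epithelium, together with Fsp1-cre and Rosa26mT/mG. All groups share this genotype: the mT/mG allele makes a red membrane protein until Cre acts and a green one afterwards, and Cre is driven by the Fsp1 (S100a4) promoter, so the sort reads past promoter activity in a cultured line and not a cell's present state. Cells grown in DMEM with serum were sorted by fluorescence into GFP+ and RFP+ populations and profiled by Drop-seq, in which polyadenylated RNA is captured on a barcoded bead. The labels list 8 samples, 4 per population, and the table pools their lanes into 2 libraries per population, so n = 2 libraries for each.

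The libraries labelled GFP+ held 2598187 and 2550319 counts from 1597 and 1798 cells, and those labelled RFP+ held 3081009 and 2988631 counts from 1998 and 1997 cells. Levels are in CPM, a gene's share of its library's counts scaled to a total of 1000000, and are not compared between genes. The reporter rows contradicted the labels. The row CUSTOM_GFP stood at 99.7 and 104 CPM in GFP+ labelled libraries, against 612 and 589.9 CPM in RFP+ labelled libraries, and the row CUSTOM_RFP at 2943 and 3053 CPM in GFP+ labelled libraries, against 132 and 137 CPM in RFP+ labelled libraries. Directions below are therefore those of the libraries as labelled. S100a4 had a log2 fold of 1.57 and Vim one of 0.77, while the epithelial genes Krt8, Krt18 and Epcam were at -1.33, -1.46 and -0.82. Of the proliferation genes, Mki67 was at 570.4 and 543 CPM in GFP+ labelled libraries, against 367 and 349 CPM in RFP+ labelled libraries (log2 fold 0.62), and Top2a at 739 and 746 CPM in GFP+ labelled libraries, against 673 and 616 CPM in RFP+ labelled libraries (log2 fold 0.19). In the fit with length and GC offsets described below these folds were 0.36 for Mki67 and 0.03 for Top2a (edgeR adjusted p = 0.741). Mitochondrially encoded genes took 0.403% and 0.378% of counts in GFP+ labelled libraries, against 0.664% and 0.644% in RFP+ labelled libraries. Summed immune markers were at 6.93 to 13.4 CPM over the 4 libraries with Lyz2 at 0, fibroblast markers at 2.01 to 9.62 CPM, endothelial markers at 0 to 1.54 CPM, and the erythroid gene Alas2 at 0. The part of these values in the results below was not tested. Cell barcodes were shared between libraries for 8 cells. The labels name no separate cultures behind the libraries, and p-values therefore cover only library-to-library spread, possibly technical.

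DNA replication is prepared in G1, when the origin recognition complex, Cdc6 and Cdt1 load the Mcm helicase onto DNA. Cyclin E and Cdk activity then recruit Cdc45 and the GINS complex, the helicase opens the DNA, and polymerase alpha with primase lays down primers that polymerases delta and epsilon extend behind the Pcna clamp. Most of these genes are transcribed in a wave at the border of G1 and S under E2F factors, which the cyclin D kinases release from the retinoblastoma protein. E2f8 and its relative E2f7 repress the same genes later in the cycle.

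Promoter windows are shown because E2F sites are the sequence feature these genes are known to share, and the windows chosen are those of members that differed in a comparison below. Windows of 250 bases before to 50 after the RefSeq gene start were matched by symbol for 48 of the 58 members (GRCm38.p6). The E2F words searched were TTTCCCGC, TTTCGCGC, TTTGCCGC and TTTGGCGC on both strands. At least 1 word was found in the windows of 18 members (37.5%), against 2.60% of 27025 genes with a window and 5.32% of 5709 tested genes that are not members. The CCAAT box, searched as CCAAT on both strands, was in 31 of the 48 windows (64.6%), against 41.1% of all genes and 42.8% of tested genes that are not members. A match to letters is not evidence of binding.
In the 6 windows that follow, 5′ to 3′ along each gene, capitals mark the E2F words. Uhrf1 (chr17:56304063-56304362, plus strand) and Pola1 (chrX:93632106-93632405, minus strand) were higher in GFP+ labelled libraries and hold 1 word each, with its 5′ base at -185 and -138 from the start. Uhrf1 has 2 windows, and the one with more words was chosen for print. Cdc6 (chr11:98907901-98908200, plus strand) with 1 word and Mcm6 (chr1:128359656-128359955, minus strand) with 3, of which the pair at -110 and -106 overlap, were lower in cells with many mitotic transcripts. Brip1 (chr11:86201144-86201443, minus strand), higher in GFP+ labelled libraries, and Dut (chr2:125247265-125247564, plus strand), lower there, hold 0 of these words. The windows of Uhrf1, Cdc6 and Dut lie wholly inside the genes as annotated by GENCODE M21, which start at 56303321, 98907801 and 125247190. Which start these cells use was not tested.
Uhrf1: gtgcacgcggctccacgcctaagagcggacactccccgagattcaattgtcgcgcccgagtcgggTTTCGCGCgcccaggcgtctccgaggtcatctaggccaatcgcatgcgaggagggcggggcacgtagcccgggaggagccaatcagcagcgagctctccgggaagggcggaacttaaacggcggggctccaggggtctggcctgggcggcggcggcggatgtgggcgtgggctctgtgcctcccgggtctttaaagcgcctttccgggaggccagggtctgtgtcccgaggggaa
Pola1: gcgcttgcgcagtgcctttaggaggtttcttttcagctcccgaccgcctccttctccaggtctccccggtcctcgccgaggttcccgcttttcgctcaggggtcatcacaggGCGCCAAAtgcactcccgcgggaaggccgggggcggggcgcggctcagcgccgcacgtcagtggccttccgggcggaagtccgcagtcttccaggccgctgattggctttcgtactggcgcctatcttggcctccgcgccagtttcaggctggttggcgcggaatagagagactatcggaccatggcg
Cdc6: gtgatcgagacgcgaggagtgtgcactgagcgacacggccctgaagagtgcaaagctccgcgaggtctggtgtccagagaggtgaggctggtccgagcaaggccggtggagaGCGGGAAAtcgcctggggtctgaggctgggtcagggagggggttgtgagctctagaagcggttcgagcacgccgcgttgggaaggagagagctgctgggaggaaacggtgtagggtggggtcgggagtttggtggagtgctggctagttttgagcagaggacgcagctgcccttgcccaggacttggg
Mcm6: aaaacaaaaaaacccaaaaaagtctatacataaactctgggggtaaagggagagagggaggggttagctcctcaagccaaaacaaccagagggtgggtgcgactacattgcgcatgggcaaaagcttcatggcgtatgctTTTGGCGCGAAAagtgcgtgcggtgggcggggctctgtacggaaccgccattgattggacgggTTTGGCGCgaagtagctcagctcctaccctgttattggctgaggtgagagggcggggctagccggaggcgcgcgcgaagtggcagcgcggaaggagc
Brip1: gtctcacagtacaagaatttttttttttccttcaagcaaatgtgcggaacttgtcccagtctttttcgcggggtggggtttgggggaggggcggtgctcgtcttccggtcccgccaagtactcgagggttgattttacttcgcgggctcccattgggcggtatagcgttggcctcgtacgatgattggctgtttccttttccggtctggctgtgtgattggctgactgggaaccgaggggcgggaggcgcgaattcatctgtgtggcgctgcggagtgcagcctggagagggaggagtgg
Dut: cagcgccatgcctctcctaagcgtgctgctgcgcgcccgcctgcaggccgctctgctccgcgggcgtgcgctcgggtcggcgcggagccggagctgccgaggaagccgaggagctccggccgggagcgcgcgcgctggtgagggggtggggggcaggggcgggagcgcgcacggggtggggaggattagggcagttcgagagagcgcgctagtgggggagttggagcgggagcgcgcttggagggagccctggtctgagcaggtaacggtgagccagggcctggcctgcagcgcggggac

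The first comparison asked how the replication genes differ between the populations sorted by the Fsp1-cre reporter. Summed over the 58 genes the level was 7929 and 7672 CPM in GFP+ labelled libraries, against 7629 and 7654 CPM in RFP+ labelled libraries, a ratio of 1.02. Sums over a library do not tell fewer cells with a transcript from fewer transcripts per cell. Counts summed over each library's cells were tested with edgeR's quasi-likelihood test across 7595 genes. Of 57 members tested, 11 were higher, where 15.7% of all genes tested were, and 6 were lower, where 14.9% were. The members' median log2 fold was 0.01, beside 0.00 over all genes tested. All 17 calls are shown in the plot of called members by library. In 21 of the 58 members both GFP+ labelled libraries lay above both RFP+ labelled libraries, and in 14 both lay below, where 34.3% and 30.7% of the genes tested did so. The 21 include Ccnd2, which was under the level tested. The shares of members called were thus near those of all genes.

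**Figure D1:**
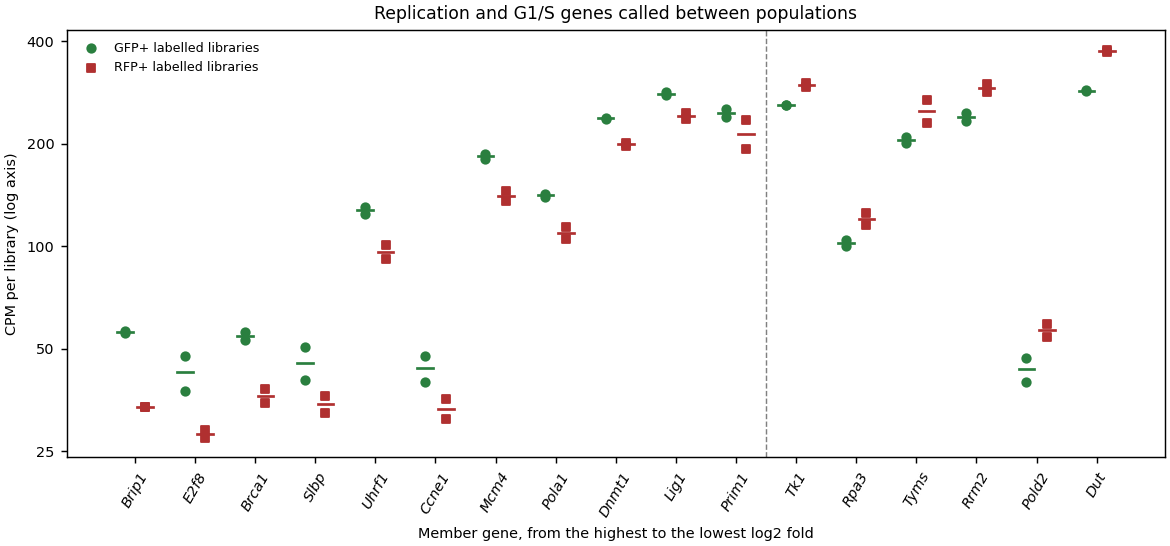
Levels in CPM (log axis) of the 17 members called between populations, with 1 point per library and a bar at the mean of 2 libraries; GFP+ labelled libraries are green circles and RFP+ labelled libraries red squares. Left of the dashed line are the 11 members higher in GFP+ labelled libraries, from Brip1 (log2 fold 0.72) to Prim1 (0.19), and right of it the 6 lower ones, down to Dut (-0.40).

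Beside these folds stands a trend over the whole table. Longer transcripts had higher folds: Spearman's rho of the log2 fold with transcript length was 0.36 across 7243 tested genes and 0.34 across the 57 members, and with GC content it was -0.26 and -0.33, where genes are not independent replicates. In 5 bins of length the median log2 fold of all genes ran from -0.16 in the shortest to 0.21 in the longest. A second edgeR fit, with offsets that take out a smooth trend on length and GC content in each library, called 10 members higher, where 12.4% of genes were, and 6 lower, where 12.3% were. Of the 17 calls 12 passed in that fit as well, and Dnmt1, Pola1, Pold2, Rpa3 and Tk1 did not. Rfc3 was called higher, and Hells, Rfc1 and Rfc2 lower, with offsets only. The part of length in the folds was not tested further. The plot of fold against length shows the members beside the medians of the bins.

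**Figure D2:**
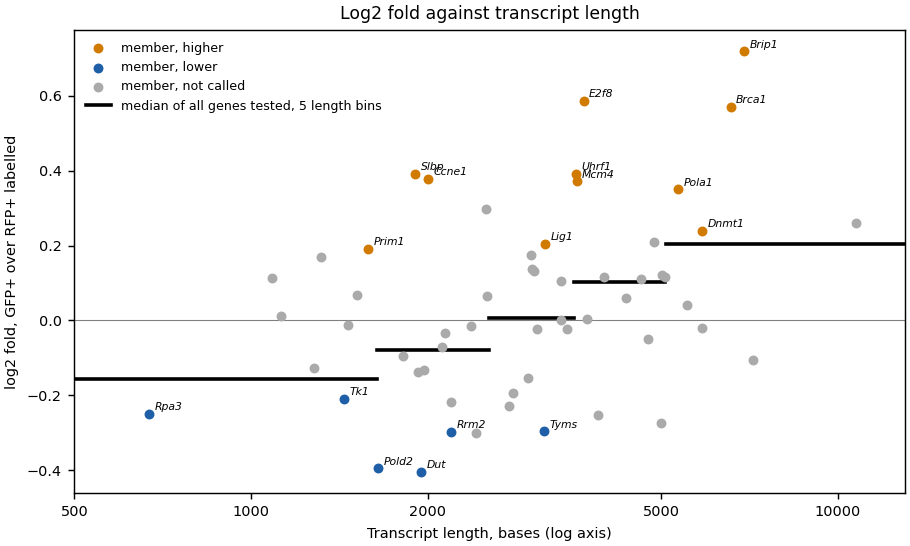
Log2 fold of GFP+ over RFP+ labelled libraries for the 57 tested members against transcript length in bases (log axis), with black lines at the median fold of all tested genes in 5 length bins. Brip1 and Brca1 lie above the line of the longest bin (0.21), and Dut lies below the line of its bin (-0.08).

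Nucleotide synthesis was the role with the most calls for its size. In the libraries labelled GFP+ 4 of 5 genes were lower and 0 higher, where 14.9% and 15.7% of all genes tested were. With length and GC offsets 3 of the 5 were lower, where 12.3% of all genes were. The median log2 fold of the 5 genes without offsets was -0.30. Their summed level was 1324 and 1259 CPM in GFP+ labelled libraries, against 1511 and 1468 CPM in RFP+ labelled libraries, a ratio of 0.867. Dut (chr2:125247190-125258608, plus strand, GRCm38) encodes dUTPase, which keeps uracil out of DNA, and was at 286 and 287 CPM in GFP+ labelled libraries, against 373 and 378 CPM in RFP+ labelled libraries (log2 fold -0.40 ± 0.0618 (SE), edgeR adjusted p = 2.07e-06). The gene of the small subunit of ribonucleotide reductase, Rrm2 (chr12:24708241-24714146, plus strand), was at 246 and 234 CPM in GFP+ labelled libraries, against 285 and 299 CPM in RFP+ labelled libraries (log2 fold -0.30 ± 0.0661 (SE), edgeR adjusted p = 5.33e-04). For both genes the libraries of the populations were well apart, each call passed in all 4 fits that left out a library, and the folds with length and GC offsets were -0.34 and -0.29. Tyms (chr5:30058202-30073617, minus strand), thymidylate synthase, was at 209.8 and 201 CPM in GFP+ labelled libraries, against 269 and 229.9 CPM in RFP+ labelled libraries (log2 fold -0.30 ± 0.0725 (SE), edgeR adjusted p = 0.00157); without RFP+ labelled library 1 its edgeR adjusted p was 0.103. Tk1, the thymidine kinase of the salvage route, was at 260.2 and 261 CPM in GFP+ labelled libraries, against 302 and 294 CPM in RFP+ labelled libraries (log2 fold -0.21 ± 0.0642 (SE), edgeR adjusted p = 0.0112). The Tk1 call is the weakest of the 4: its edgeR adjusted p was 0.0636 without GFP+ labelled library 1 and 0.0535 without RFP+ labelled library 1, and its log2 fold with offsets was -0.03 (edgeR adjusted p = 0.813). Rrm1, the large subunit of the same reductase as Rrm2, was at 322 and 277 CPM in GFP+ labelled libraries, against 282 and 266 CPM in RFP+ labelled libraries, so its groups overlapped (log2 fold 0.12 ± 0.0676 (SE), edgeR adjusted p = 0.193). It was called only without GFP+ labelled library 2, at an edgeR adjusted p of 0.0428.

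The 4 fork protection and checkpoint genes all had both GFP+ labelled libraries above both RFP+ labelled libraries, and 2 were called higher; of all genes tested 34.3% had both GFP+ labelled libraries above and 15.7% were called higher. Their median log2 fold was 0.41 and their summed level 289 and 287 CPM in GFP+ labelled libraries, against 230.1 and 225 CPM in RFP+ labelled libraries, a ratio of 1.27. Brip1 (chr11:86058138-86201193, minus strand), a helicase that works with Brca1, was at 55.8 and 56.5 CPM in GFP+ labelled libraries, against 33.8 and 33.8 CPM in RFP+ labelled libraries (log2 fold 0.72 ± 0.134 (SE), edgeR adjusted p = 5.58e-05). Brca1 (chr11:101488764-101551955, minus strand), which guards stalled forks and repairs breaks, was at 53.1 and 56.1 CPM in GFP+ labelled libraries, against 34.7 and 38.1 CPM in RFP+ labelled libraries (log2 fold 0.57 ± 0.134 (SE), edgeR adjusted p = 0.00107). The library pairs did not overlap for either gene, and both calls passed in all 4 fits that left out a library. Brca2, which acts in break repair by homologous recombination, had 47.6 ± 4.59 CPM in GFP+ labelled libraries and 39.3 ± 3.58 CPM in RFP+ labelled libraries (SD, n = 2 each; log2 fold 0.26 ± 0.137 (SE), edgeR adjusted p = 0.152). Clspn, the adaptor between stalled forks and the kinase Chk1, was at 129.7 and 129.8 CPM in GFP+ labelled libraries, against 119.8 and 116 CPM in RFP+ labelled libraries (log2 fold 0.12 ± 0.0851 (SE), edgeR adjusted p = 0.290). The transcripts of these genes were the longest of any role, with a median of 6752 bases against 3022 over all members. With length and GC offsets the log2 folds were 0.51 for Brip1 (edgeR adjusted p = 0.00420), 0.37 for Brca1 (0.0381), -0.02 for Brca2 and -0.01 for Clspn.

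Among the 16 helicase and licensing genes the median log2 fold was 0.08. Of these, 1 was called higher and 0 lower, where 15.7% and 14.9% of all genes tested were. That gene was Mcm4 (chr16:15623897-15637400, minus strand), a subunit of the ring-shaped helicase, at 187 and 180.4 CPM in GFP+ labelled libraries, against 146 and 136 CPM in RFP+ labelled libraries (log2 fold 0.37 ± 0.0771 (SE), edgeR adjusted p = 2.31e-04). Its libraries did not overlap, its call passed in all 4 fits that left out a library, and its fold with offsets was 0.29. The other subunits did not pass. Mcm2 was at 146 and 135 CPM in GFP+ labelled libraries, against 125 and 135 CPM in RFP+ labelled libraries (log2 fold 0.10 ± 0.0838 (SE), edgeR adjusted p = 0.361). Mcm3 was at 274 and 254 CPM in GFP+ labelled libraries, against 239.5 and 238 CPM in RFP+ labelled libraries (log2 fold 0.13 ± 0.0665 (SE), edgeR adjusted p = 0.126). For Mcm5 the values were 110.1 and 107 CPM in GFP+ labelled libraries, against 103 and 112 CPM in RFP+ labelled libraries (log2 fold 0.00 ± 0.0919 (SE), edgeR adjusted p = 0.991). Each of these is part of the same hexamer as Mcm4, and the log2 folds of the 6 subunits ran from -0.15 in Mcm7 to 0.37 in Mcm4; whether subunits differ from each other was not tested. Mcm6 was at 182 and 158 CPM in GFP+ labelled libraries, against 169 and 154 CPM in RFP+ labelled libraries (log2 fold 0.06 ± 0.0794 (SE), edgeR adjusted p = 0.596). For Mcm7, which shares its locus with genes on the other strand, the level was 163 and 174 CPM in GFP+ labelled libraries, against 183 and 188 CPM in RFP+ labelled libraries (log2 fold -0.15 ± 0.0751 (SE), edgeR adjusted p = 0.119).

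Around the helicase, Gmnn, whose product geminin blocks relicensing by binding Cdt1, was at 139 and 134 CPM in GFP+ labelled libraries, against 141 and 126 CPM in RFP+ labelled libraries (log2 fold 0.01 ± 0.0836 (SE), edgeR adjusted p = 0.927). Orc6, a subunit of the origin recognition complex, was at 201 and 209 CPM in GFP+ labelled libraries, against 207 and 202 CPM in RFP+ labelled libraries (log2 fold -0.01 ± 0.0707 (SE), edgeR adjusted p = 0.924). Cdc6, the loader of the helicase, was at 67.0 and 67.8 CPM in GFP+ labelled libraries, against 56.5 and 67.3 CPM in RFP+ labelled libraries (log2 fold 0.11 ± 0.118 (SE), edgeR adjusted p = 0.505). The groups overlapped for all of these. Mcm10, which helps to switch the helicase on, was at 64.3 and 51.8 CPM in GFP+ labelled libraries, against 52.6 and 46.8 CPM in RFP+ labelled libraries (log2 fold 0.21 ± 0.128 (SE), edgeR adjusted p = 0.222). The remaining genes of this role, Gins1, Gins2, Gins3, Cdc45, Cdt1 and Orc1, had log2 folds from -0.25 (Gins2) to 0.30 (Gins3), and none passed. Gins2 was called lower without GFP+ labelled library 2 (edgeR adjusted p = 0.0307) and without RFP+ labelled library 1 (0.0444).

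Of the 19 polymerase, clamp and fork genes 3 were higher and 2 lower, where 15.7% and 14.9% of all genes tested were. The median log2 fold of this role was -0.05. The 3 higher genes were Pola1, Prim1 and Lig1. Pola2 and Prim2, which encode partner subunits of Pola1 and Prim1, had log2 folds of -0.30 and -0.13 and were not called. Pola1 (chrX:93304767-93632155, minus strand), the catalytic subunit of polymerase alpha, was at 142 and 140.0 CPM in GFP+ labelled libraries, against 114 and 105 CPM in RFP+ labelled libraries (log2 fold 0.35 ± 0.0854 (SE), edgeR adjusted p = 0.00152), and its call passed in all 4 fits that left out a library. Prim1, the primase that makes the RNA primer, was at 253 and 240.0 CPM in GFP+ labelled libraries, against 194 and 235 CPM in RFP+ labelled libraries (log2 fold 0.19 ± 0.0750 (SE), edgeR adjusted p = 0.0484). Lig1, the ligase that joins Okazaki fragments, was at 283 and 278 CPM in GFP+ labelled libraries, against 236 and 246 CPM in RFP+ labelled libraries (log2 fold 0.20 ± 0.0657 (SE), edgeR adjusted p = 0.0152). The Pola1 libraries lay well apart, those of Prim1 came close to each other, and the calls of Prim1 and Lig1 passed in only 1 of those fits, that without RFP+ labelled library 2 (edgeR adjusted p = 4.58e-04 and 0.0126). In the other 3 the edgeR adjusted p ran from 0.0523 to 0.691 for Prim1 and from 0.0554 to 0.114 for Lig1. With offsets Pola1 had a log2 fold of 0.18 (edgeR adjusted p = 0.109).

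The 2 lower genes of this role encode accessory subunits. Pold2, of polymerase delta, was at 40.03 and 47.1 CPM in GFP+ labelled libraries, against 54.2 and 59.2 CPM in RFP+ labelled libraries (log2 fold -0.39 ± 0.131 (SE), edgeR adjusted p = 0.0190). Rpa3, of the single-strand binding protein RPA, was at 100.1 and 105 CPM in GFP+ labelled libraries, against 125 and 116 CPM in RFP+ labelled libraries (log2 fold -0.25 ± 0.0904 (SE), edgeR adjusted p = 0.0319). Neither pair of libraries overlapped the other. The edgeR adjusted p of Pold2 was 0.222 without GFP+ labelled library 1 and 0.147 without RFP+ labelled library 2, and Rpa3 passed only without RFP+ labelled library 2 (0.0364; otherwise 0.0532 to 0.206). With offsets the log2 folds were -0.20 (edgeR adjusted p = 0.283) for Pold2 and -0.13 (0.313) for Rpa3.

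The clamp and its loader did not pass. Pcna, the sliding clamp, was at 484 and 459.9 CPM in GFP+ labelled libraries, against 446 and 447 CPM in RFP+ labelled libraries (log2 fold 0.07 ± 0.0573 (SE), edgeR adjusted p = 0.399). Rfc1, the large subunit of the loader, was at 199 and 189 CPM in GFP+ labelled libraries, against 197 and 201 CPM in RFP+ labelled libraries (log2 fold -0.05 ± 0.0716 (SE), edgeR adjusted p = 0.627), and at -0.19 on the log2 scale with offsets (edgeR adjusted p = 0.0483). Rfc3, another loader subunit, was at 135 and 116 CPM in GFP+ labelled libraries, against 109 and 113 CPM in RFP+ labelled libraries (log2 fold 0.17 ± 0.0897 (SE), edgeR adjusted p = 0.153), and at 0.25 with offsets (0.0330), so with offsets the loader had calls in both directions. Rfc4 was at 110.1 and 105 CPM in GFP+ labelled libraries, against 120.1 and 112 CPM in RFP+ labelled libraries (log2 fold -0.13 ± 0.0897 (SE), edgeR adjusted p = 0.290). Rfc2 had a log2 fold of -0.27 (edgeR adjusted p = 0.0529), -0.38 with offsets (0.00794), and was called lower without RFP+ labelled library 2 (0.0422). The other 8 genes, Pola2, Prim2, Pold1, Pold3, Pole, Rpa1, Rpa2 and Fen1, and the loader gene Rfc5, were not called, with log2 folds from -0.30 (Pola2) to 0.12 (Rpa1).

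Where 15.7% of all genes tested were higher and 14.9% lower, chromatin copying held 3 higher genes of 7 and 0 lower. Uhrf1 (chr17:56303321-56323486, plus strand) reads hemimethylated DNA behind the fork and recruits Dnmt1, the maintenance methyltransferase, and both were among them. Uhrf1 was at 130.5 and 125 CPM in GFP+ labelled libraries, against 91.9 and 101 CPM in RFP+ labelled libraries (log2 fold 0.39 ± 0.0908 (SE), edgeR adjusted p = 9.15e-04), and Dnmt1 at 237 and 238 CPM in GFP+ labelled libraries, against 202 and 197 CPM in RFP+ labelled libraries (log2 fold 0.24 ± 0.0688 (SE), edgeR adjusted p = 0.00686). The libraries of the populations did not overlap for either gene. The Uhrf1 call passed in all 4 fits that left out a library, whereas Dnmt1 was at an edgeR adjusted p of 0.0510 without GFP+ labelled library 2 and at a log2 fold of 0.16 with offsets (edgeR adjusted p = 0.0814). Slbp, the binding protein of histone messenger RNA, was at 50.8 and 40.4 CPM in GFP+ labelled libraries, against 32.5 and 36.5 CPM in RFP+ labelled libraries (log2 fold 0.39 ± 0.145 (SE), edgeR adjusted p = 0.0362), with edgeR adjusted p of 0.397 without GFP+ labelled library 1 and 0.228 without RFP+ labelled library 1. Hells, a chromatin remodeller needed for DNA methylation, was at 256 and 232 CPM in GFP+ labelled libraries, against 238 and 253 CPM in RFP+ labelled libraries (log2 fold -0.02 ± 0.0687 (SE), edgeR adjusted p = 0.849), and with offsets at a log2 fold of -0.20 (edgeR adjusted p = 0.0274). Chaf1a, the large subunit of the histone chaperone CAF-1, was at 142 and 169.8 CPM in GFP+ labelled libraries, against 137 and 163 CPM in RFP+ labelled libraries (log2 fold 0.04 ± 0.0886 (SE), edgeR adjusted p = 0.755), and its partner Chaf1b at 48.1 and 44.7 CPM in GFP+ labelled libraries, against 54.9 and 46.2 CPM in RFP+ labelled libraries (log2 fold -0.14 ± 0.132 (SE), edgeR adjusted p = 0.458). For the histone chaperone Nasp the values were 487 and 485 CPM in GFP+ labelled libraries, against 449 and 472 CPM in RFP+ labelled libraries (log2 fold 0.07 ± 0.0575 (SE), edgeR adjusted p = 0.413). In Hells, Chaf1a and Chaf1b the groups overlapped.

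Of the cyclins and E2F factors, 2 of 6 tested were higher and 0 lower, where 15.7% and 14.9% of all genes tested were. E2f8 (chr7:48866429-48881596, minus strand), the late-cycle repressor, was at 47.7 and 37.6 CPM in GFP+ labelled libraries, against 28.9 and 27.4 CPM in RFP+ labelled libraries (log2 fold 0.59 ± 0.153 (SE), edgeR adjusted p = 0.00304), and without GFP+ labelled library 1 its edgeR adjusted p was 0.108. Ccne1, a cyclin E that drives entry into S phase, was at 47.7 and 39.99 CPM in GFP+ labelled libraries, against 35.7 and 31.1 CPM in RFP+ labelled libraries (log2 fold 0.38 ± 0.146 (SE), edgeR adjusted p = 0.0440). The Ccne1 call rests on few counts and passed only in the fit without GFP+ labelled library 2 (edgeR adjusted p = 0.0267), with 0.0538 to 0.337 in the other 3. Ccne2, the second cyclin E, was at 87.4 and 78.4 CPM in GFP+ labelled libraries, against 74.0 and 71.6 CPM in RFP+ labelled libraries (log2 fold 0.17 ± 0.106 (SE), edgeR adjusted p = 0.218). Ccnd1, the cyclin D that couples growth signals to the cell cycle, was at 655 and 629 CPM in GFP+ labelled libraries, against 622 and 645 CPM in RFP+ labelled libraries (log2 fold 0.00 ± 0.0545 (SE), edgeR adjusted p = 0.955), a 95% interval of the log2 fold from -0.10 to 0.11. The activator E2f1 and Ccnd3 had log2 folds of -0.23 and -0.07 and were not called. Ccnd2 was under the level tested, with 7 and 5 counts in GFP+ labelled libraries and 6 and 0 in RFP+ labelled libraries.

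DESeq2's Wald test, run on the same sums, called 4 of the 17 members and gave all 17 the same direction. Its adjusted p was 0.0200 for Brip1, 0.0406 for Mcm4, 7.20e-04 for Dut and 0.0449 for Rrm2, and from 0.0846 (Uhrf1) to 0.407 (Prim1) for the other 13. Over all genes DESeq2 called 4.79% higher and 4.87% lower, so the members' counts of 2 and 2 are again near the background. Among 20 members an annotated gene on the other strand overlaps, and 4 have a named pseudogene (Pcna, Tyms, Nasp and Ccnd3). Whether the counting used strand is not given in the sources used here. Those counts may hold reads of the neighbour or the copy. The plot of folds by role sets both edgeR fits side by side.

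**Figure D3:**
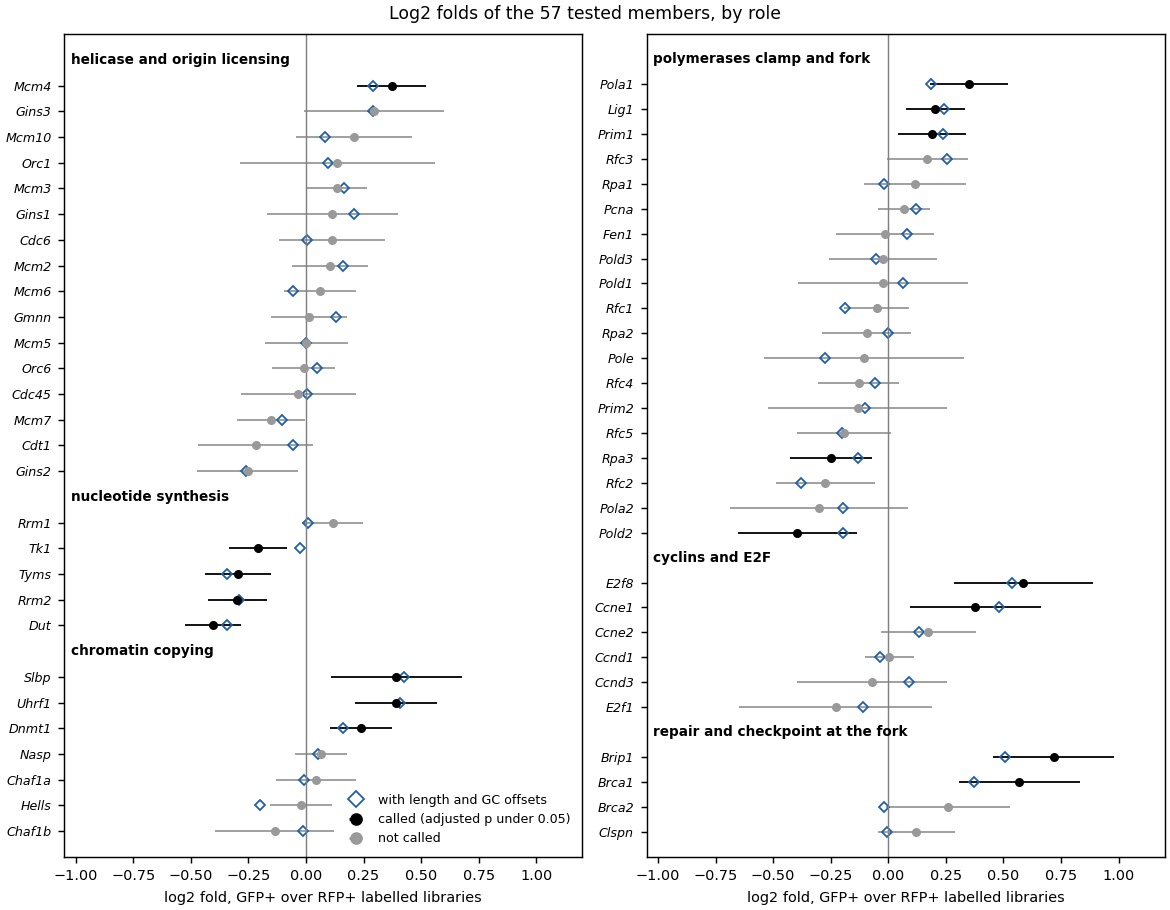
Log2 fold of GFP+ over RFP+ labelled libraries for the 57 tested members by role, with bars of the 95% interval; filled points are the fit without offsets (black, called; grey, not called) and open diamonds the fit with length and GC offsets. Nucleotide synthesis lies to the left except for Rrm1, and the diamonds of Tk1 (-0.03) and Brca2 (-0.02) sit near 0.

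A list of 88 other replication and G1/S genes was read in the same fit: 82 were tested, 13 were higher, where 15.7% of all genes were, and 5 lower, where 14.9% were, at a median log2 fold of 0.04. Nucleotide genes stood on both sides. Paics, an enzyme of purine synthesis, was at 718 and 689.7 CPM in GFP+ labelled libraries, against 534 and 509 CPM in RFP+ labelled libraries (log2 fold 0.42 ± 0.0547 (SE), edgeR adjusted p = 8.34e-08), and Atic, another purine enzyme, was also higher, though not without RFP+ labelled library 1 (edgeR adjusted p = 0.0845). Dtymk and Dctpp1, which act on pyrimidine nucleotides, were lower. The Dctpp1 log2 fold was -0.21 and turned to 0.06 with length and GC offsets (edgeR adjusted p = 0.577), and its call failed without GFP+ labelled library 1 (0.207) and without RFP+ labelled library 1 (0.130). Cdk6, a kinase partner of cyclin D, was at 20.8 and 18.4 CPM in GFP+ labelled libraries, against 33.8 and 26.1 CPM in RFP+ labelled libraries (log2 fold -0.62 ± 0.184 (SE), edgeR adjusted p = 0.00840), and Cdk4, the other partner, was lower as well. Among the higher genes, E2f6, a repressor of the E2F family, was at 26.6 and 27.4 CPM in GFP+ labelled libraries, against 18.2 and 17.4 CPM in RFP+ labelled libraries (log2 fold 0.59 ± 0.189 (SE), edgeR adjusted p = 0.0153). Msh6, a mismatch repair gene, was at 55.8 and 49.8 CPM in GFP+ labelled libraries, against 39.6 and 37.8 CPM in RFP+ labelled libraries (log2 fold 0.43 ± 0.133 (SE), edgeR adjusted p = 0.0113). These are small differences on low counts, and the library pairs did not overlap. Wdhd1, which tethers polymerase alpha at the fork, was at 65.8 and 62.0 CPM in GFP+ labelled libraries, against 49.98 and 46.8 CPM in RFP+ labelled libraries (log2 fold 0.39 ± 0.122 (SE), edgeR adjusted p = 0.0137), and the helicase Blm was at 60.04 and 62.3 CPM in GFP+ labelled libraries, against 42.5 and 50.9 CPM in RFP+ labelled libraries (log2 fold 0.38 ± 0.127 (SE), edgeR adjusted p = 0.0205). With length and GC offsets 5 genes of this list were higher and 8 lower, and of the 6 genes given with values Cdk6 (-0.91), E2f6 (0.61) and Paics (0.42) were still called, at edgeR adjusted p of 1.67e-04, 0.0145 and 4.36e-08. Without a single library the calls of E2f6 passed in 1 of 4 fits, those of Cdk6, Msh6, Wdhd1 and Blm in 2 and that of Paics in 4.

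The second comparison asked which replication genes differ between cells with many and cells with few mitotic transcripts inside each library. Cells were thinned to 1000 counts and ranked by the summed counts of 61 G2/M genes, none of them a member. G2/M-high cells lay at or above the library's 75th percentile (15 or 16 counts) and G2/M-low cells at or below its 25th (8 or 9 counts), which gave 323 to 391 and 324 to 462 cells per library. Before thinning their median total counts were 1442 to 1508 in G2/M-high cells and 1353 to 1451.5 in G2/M-low cells, higher in G2/M-high cells in 3 of 4 libraries. With library as a block, edgeR called 5 members lower and 0 higher in G2/M-high cells, where 1.48% of 7563 genes were lower and 1.49% higher. At an unadjusted p under 0.05, 17 members were lower and 3 higher, where 6.94% and 6.36% of all genes were. The members' median log2 fold was -0.15, beside -0.0042 over all genes tested.

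All 5 are known as genes of the wave at the border of G1 and S. Values per library are given for GFP+ labelled libraries 1 and 2 and then RFP+ labelled libraries 1 and 2. Ccne2, the cyclin E, was at 49.5, 43.3, 58.8 and 62.0 CPM in G2/M-high cells, against 123, 95.7, 90.9 and 92.2 CPM in G2/M-low cells (log2 fold -0.91 ± 0.197 (SE), edgeR adjusted p = 3.52e-04). Cdc6, which loads the helicase in G1, was at 39.1, 43.3, 35.8 and 54.3 CPM in G2/M-high cells, against 64.9, 80.2, 71.4 and 94.5 CPM in G2/M-low cells (log2 fold -0.86 ± 0.220 (SE), edgeR adjusted p = 0.00584). Chaf1b, of the chaperone CAF-1, was at 33.9, 27.9, 43.5 and 20.7 CPM in G2/M-high cells, against 41.1, 64.8, 86.6 and 53.0 CPM in G2/M-low cells (log2 fold -0.95 ± 0.249 (SE), edgeR adjusted p = 0.00750). In each of these genes every library had the lower value in its G2/M-high cells. Pcna, the clamp, was at 456, 331, 384 and 393 CPM in G2/M-high cells, against 504, 494, 506 and 456 CPM in G2/M-low cells (log2 fold -0.33 ± 0.0823 (SE), edgeR adjusted p = 0.00433), also lower in 4 of 4 libraries. For the helicase subunit Mcm6 the values were 125, 139, 136 and 127 CPM in G2/M-high cells, against 193, 136, 186 and 194 CPM in G2/M-low cells (log2 fold -0.46 ± 0.140 (SE), edgeR adjusted p = 0.0365), with GFP+ labelled library 2 the exception.

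The calls rest on small sums. Without RFP+ labelled library 1 only Ccne2 was still called, and each fit that left out a library called 1 to 3 members, all from the 5. Ccne2 itself failed without GFP+ labelled library 1 (edgeR adjusted p = 0.0541). Mcm6 was called only without GFP+ labelled library 2, and Chaf1b only without GFP+ labelled library 1. Pcna failed without GFP+ labelled library 2 (edgeR adjusted p = 0.0946) and without RFP+ labelled library 1 (0.0656), and Cdc6 failed without RFP+ labelled library 1 (0.0546). DESeq2's Wald test called 0 members and had 5 lower and 0 higher at an unadjusted p under 0.05, where 1.73% and 1.43% of all genes were. With cells thinned to 1500 counts 9 members were lower and Brca2 higher, and with classes cut at the 90th and 50th percentile 10 were lower. Both sets hold Ccne2, Cdc6, Mcm6, Pcna, Mcm4, Mcm5 and Orc6. The share of all genes called is not set beside these counts here, so they cannot be ranked against the 5 of the main fit. For the cut at the 90th and 50th percentile, the number of all genes called lower is given with the alternatives below.

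Other members with large folds did not pass. Pold1, the catalytic subunit of polymerase delta, was at 18.2, 15.5, 7.67 and 10.3 CPM in G2/M-high cells, against 28.1, 12.3, 21.6 and 29.95 CPM in G2/M-low cells (log2 fold -0.88 ± 0.396 (SE), edgeR adjusted p = 0.282). Mcm10 was at 39.1, 43.3, 43.5 and 28.4 CPM in G2/M-high cells, against 82.3, 46.3, 64.9 and 48.4 CPM in G2/M-low cells (log2 fold -0.68 ± 0.238 (SE), edgeR adjusted p = 0.0946). Slbp was at 41.7, 40.2, 23.0 and 23.3 CPM in G2/M-high cells, against 71.4, 40.1, 28.1 and 50.7 CPM in G2/M-low cells (log2 fold -0.61 ± 0.263 (SE), edgeR adjusted p = 0.250). Of these 3, Mcm10 had the lower value in the G2/M-high cells of all 4 libraries and the other 2 in 3 libraries. At the other end, Lig1 was above in the G2/M-high cells of all 4 libraries (299, 300.3, 281 and 287 CPM in G2/M-high cells, against 240.3, 238, 214 and 242 CPM in G2/M-low cells; log2 fold 0.31 ± 0.107 (SE), edgeR adjusted p = 0.0938), and so were Tk1, Ccnd1, Dnmt1, Rrm1 and Rfc5, none of which passed. With cells thinned to 1500 counts the log2 folds of Lig1 and Rfc5 turned to -0.30 and -0.11, and that of Rfc5 was -0.02 with the cut at the 90th and 50th percentile. From the list of other replication genes Dbf4, the partner of the origin-firing kinase Cdc7, was higher in G2/M-high cells (log2 fold 0.93 ± 0.159 (SE), edgeR adjusted p = 1.40e-06). Ung (-1.16), which removes uracil from DNA, and Dtl (-0.65), which marks Cdt1 for degradation, were lower. These 3 are all that were called of that list of 88 genes, 1 higher and 2 lower. Of all genes tested 1.49% were higher and 1.48% lower, so the list stood near that share.

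**Figure D4:**
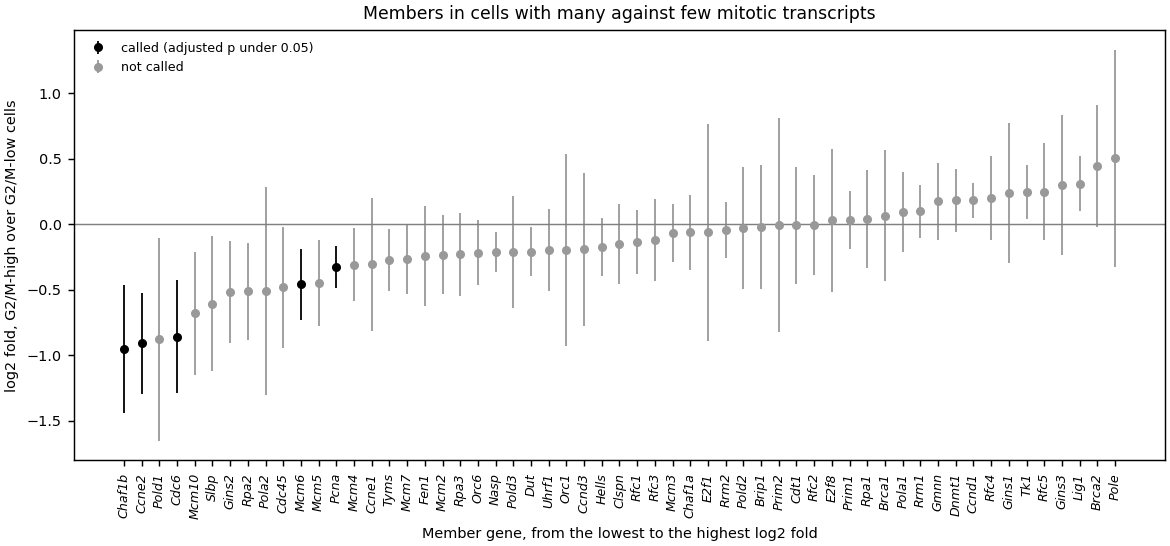
Log2 fold of G2/M-high over G2/M-low cells for the 57 tested members, ordered from lowest to highest, with bars of the 95% interval from the edgeR fit with library as a block. Black points are the 5 called members, Chaf1b, Ccne2, Cdc6, Mcm6 and Pcna, all below 0.

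Across finer steps of mitotic counts the sum over all members was highest in the middle steps. In cells with 0 to 5 G2/M counts all members together were at 7241, 7176, 7596 and 7576 CPM in the same order of libraries. Cells with 6 to 10 counts had 8017, 7823, 8078 and 8166 CPM, and those with 11 to 15 had 8224, 7683, 7941 and 7485 CPM. Cells with 16 to 20 counts had 7769.6, 7962, 7327 and 7345 CPM and those with 21 or more had 7195, 6864, 6629 and 6696 CPM, the lowest step in every library. In GFP+ labelled libraries Ccne2 was highest at 6 to 10 counts and lowest at 21 or more, while in RFP+ labelled libraries it was about level over the first steps and lower after them. Its values were 77.6, 49.0, 83.3 and 94.1 CPM at 0 to 5 counts, 122, 116, 83.6 and 94.5 CPM at 6 to 10, 98.0, 88.3, 69.6 and 60.4 CPM at 11 to 15, 56.5, 54.6, 59.8 and 61.9 CPM at 16 to 20 and 39.0, 28.6, 57.1 and 64.0 CPM at 21 or more. Each step held at least 102 cells per library, and no test was made on the steps. G2/M counts are part of the 1000, so cells rich in them have fewer counts left for other genes. The part of this in the values by step was not tested.

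The 2 comparisons were set against each other by testing whether the G2/M class fold differs between populations. For 0 of 57 members and 0 of 7563 genes did the interaction pass in edgeR. At an unadjusted p under 0.05 there were 5 members, and 353 genes (4.67%) over all. The smallest p belonged to Prim1, which was at 297 and 297 CPM in G2/M-high cells against 247 and 179 CPM in G2/M-low cells of GFP+ labelled libraries. In RFP+ labelled libraries Prim1 was at 156 and 209 CPM in G2/M-high cells against 221 and 258 CPM in G2/M-low cells. The difference of its log2 folds was 0.86 ± 0.229 (SE; edgeR adjusted p = 0.456), so it did not hold up over all genes. In G2/M-low cells alone, which hold far fewer counts, 0 members differed between populations in edgeR, with 2 higher and 6 lower at an unadjusted p under 0.05, where 9.98% and 9.45% of 6922 genes were. There 16 of the 17 members called over all cells had the same direction, and Prim1 was the exception.

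The members were also read against each other inside cells. For each member the thinned cells of a library were split by the summed counts of the other members, at the library's 75th and 25th percentile, and the member's level was compared between them. This is a description with no test. Cells held a mean of 7.64 to 7.89 member counts of 1000, a median of 7 or 8, and 3 to 5 cells per library held 0. The variance of that sum over its mean was 1.41 and 1.51 in GFP+ labelled libraries and 1.30 and 1.46 in RFP+ labelled libraries. Independent counts with sampling noise alone would give 1. Single members already had a median of 1.04, and the part of their own spread in the excess was not tested. Counts before thinning had medians of 1409 to 1472 in cells high in the members and 1344 to 1432.5 in cells low in them.

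Of 57 members 33 were higher in the cells high in the other members in all 4 libraries, where 8.2% of 7538 other genes were. The members' median ratio was 1.31, beside 1.01 over the other genes, and 11 members reached 1.5, where 4.46% did. That count was 22 with cells thinned to 1500 counts, where 6.86% of other genes did, and 18 with the cut at the 90th and 50th percentile, where 4.72% did. Ccne2 was at 127, 131, 88.0 and 97.9 CPM in high cells and 56.3, 61.5, 47.7 and 64.8 CPM in low cells, a ratio of 1.92. Brip1 was at 76.2, 74.2, 64.1 and 57.7 CPM in high cells and 39.5, 43.1, 37.8 and 27.7 CPM in low cells, a ratio of 1.84. For Mcm2 the values were 182, 188, 145 and 175 CPM in high cells and 116, 90.9, 74.4 and 111 CPM in low cells, a ratio of 1.76. These 3 members, from the cyclins, the repair genes and the helicase, were above in every library. Orc1 (2.08), Pole (1.90) and Pold1 (1.88) had high ratios on few counts, Orc1 had 0 counts in the low cells of RFP+ labelled library 2, and Pold1 was below 1 in GFP+ labelled library 1. By role the median ratio was 1.48 for chromatin copying, 1.39 for the helicase and licensing genes, 1.34 for cyclins and E2F factors, 1.33 for the repair genes, 1.24 for the polymerases and fork genes and 1.17 for nucleotide synthesis.

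Only Pold2 (0.877) and Ccnd1 (0.973) had ratios under 1. By library the Pold2 ratios were 1.02 and 1.27 in GFP+ labelled libraries and 0.512 and 1.003 in RFP+ labelled libraries. Only RFP+ labelled library 1 was thus below 1. Ccnd1, which answers to growth signals, was at 658, 642, 559.7 and 675 CPM in high cells and 673, 604, 701 and 628 CPM in low cells, with the libraries going both ways. Of the 82 other replication genes 27 were above 1 in all 4 libraries, with a median ratio of 1.22, and of the 61 G2/M genes 0 were, with a median of 0.929. The variance over the mean of single members per thinned cell had a median of 1.04, beside 1.03 over all genes tested. Over all genes tested its 95th percentile was 1.12. With so few counts of a gene per cell, it cannot show whether single members were more uneven over cells than other genes.

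**Figure D5:**
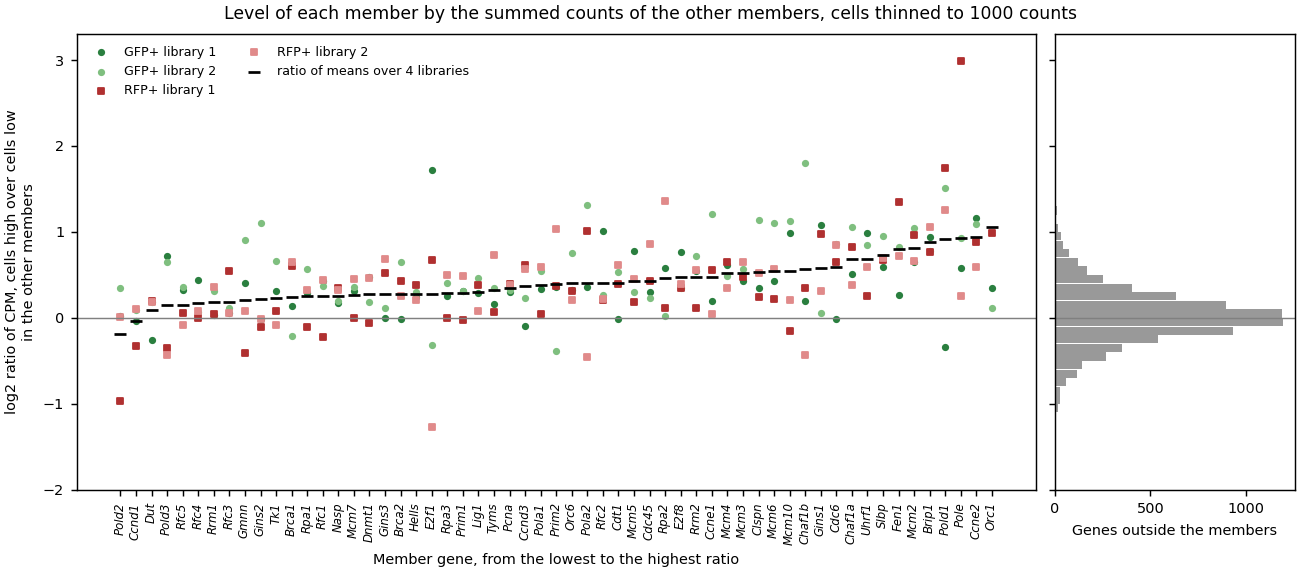
Log2 ratio of each member's level (CPM) in cells high over cells low in the other members, with 1 point per library (GFP+ labelled, green circles; RFP+ labelled, red squares) and a dash for the ratio of means over 4 libraries; the histogram gives the same ratio for genes outside the members. Nearly all dashes lie above 0, up to Orc1 (2.08 as a ratio), whose point for RFP+ labelled library 2 cannot be drawn because the low cells had 0 counts.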

How the data were processed

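Tri-PyMT cells of the GFP+ and RFP+ populations were profiled by Drop-seq and sequenced on an Illumina instrument after Nextera preparation, per the labels' protocols. The submitters' processing notes name the build GRCm38. The authors deposited a table of raw counts for each gene in each cell; for the aligner, counter, use of strand and collapsing of molecular identifiers, the sources used here give nothing. Library names come from column prefixes, and lanes are pooled, which leaves 2 libraries per population. Cells entered with 500 or more counts and less than 20% of them mitochondrially encoded (7390 of 7400). No doublet caller was run; leaving out the top 5% of cells by counts in each library stands in for it.

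Counts were summed per library and tested in R 4.3.3 with edgeR 4.0.16 (quasi-likelihood F test after TMM scaling; Benjamini-Hochberg adjusted p under 0.05 over all genes tested), with DESeq2 1.42.0 as an alternative. A gene was tested with at least 10 CPM in either population's mean and at least 20 counts in all. Each SE was taken as the size of the log2 fold divided by the root of F, with a dispersion that edgeR moderates across genes. Chi-square per degree of freedom between libraries of a population was 1.36 for GFP+ and 1.33 for RFP+ labelled libraries; counting noise alone gives 1, and PCR copies can raise it, so this does not show separate cultures. Depth sets the precision: members held 19566 to 23504 counts per library. For the G2/M classes and the readings inside cells, cells were thinned to 1000 counts, which left 1233 to 1545 cells per library. Transcript lengths, GC content and coordinates are those of GENCODE M21 on GRCm38 (longest protein-coding transcript). The scripts were tested on simulated data.

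The members, lists and tests were chosen with earlier results of these data known. Values are given for every member called between populations, every member with at least 100 CPM in either population, the 6 with the largest fold between G2/M classes and, of the other replication genes, at most 6 with the largest fold among those called with at least 20 CPM; members and other genes named beyond these were chosen after their values were seen.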

Additional observations from a re-analysis of the deposited data

How the results depend on the processing

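With 2 libraries per population, few counts per cell and PCR products whose molecular identity is not given in the sources used here, the calls are sensitive to the test. The 17 members called between populations had the same direction in each alternative that tested them (the 50 CPM filter tested 14), except Prim1 in G2/M-low cells alone, at a log2 fold of -0.16 (edgeR adjusted p = 0.649). DESeq2's Wald test gave 2 members higher and 2 lower, 364 and 370 of all genes, and 2 and 2 of the other replication genes. G2/M-low cells alone gave 0 members higher and 0 lower (2 and 6 at an unadjusted p under 0.05), 227 and 219 of all genes, and 1 and 0 of the other replication genes; fewer cells enter that fit. Thinning to 1000 counts called 9 members, 4 of them higher and the others (Dut, Gins2, Pold2, Rrm2 and Tyms) lower. Of all genes it gave 743 higher and 692 lower, and of the other replication genes 7 and 3. Without a filter on low counts 11 members were called, 7 of them higher and the others (Dut, Rrm2, Tk1 and Tyms) lower. Of the other replication genes 7 were higher and 3 lower in that fit. Without the top 5% of cells 12 members were called, 6 of them higher and the others (Dut, Pold2, Rpa3, Rrm2, Tk1 and Tyms) lower. For the fits without the filter and without the top cells, the share of all genes called is not given here. Length and GC offsets gave 5 and 8 of the other replication genes. For DESeq2, thinning, filter and offsets, the cause of the change was not tested. DESeq2 size factors, library totals, a filter at 50 CPM and cells with at least 1000 counts kept the counts within 1.5 times.

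Leaving out each library in turn gave 6 to 10 members higher and 3 to 6 lower, 872 to 923 and 797 to 920 of all genes, and 6 to 9 and 2 to 5 of the other replication genes. A population left with 1 library is assumed to vary like the other. Between G2/M classes, DESeq2 gave 0 members lower (5 at an unadjusted p under 0.05) and 27 genes higher and 26 lower over all. Thinning to 1500 counts gave 1 member higher and 9 lower, and 2 genes with an interaction. How many of the 7187 genes tested there were called higher or lower is not given here. The cut at the 90th and 50th percentile gave 10 members and 174 of 7561 genes lower. Without a library the range was 1 to 3 members lower, 59 to 79 genes higher and 66 to 102 lower, and 0 to 1 genes with an interaction. The members' median co-detection ratio was 1.41 at 1500 counts. No paired analysis was possible because the 2 populations share fewer than 2 library numbers in the column names and the lane numbers in the titles are pooled in the columns.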
